A study of Mus musculus with 2 samples.

Results

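The mouse genome carries a large set of Zfp genes, most of which encode C2H2 zinc finger proteins, and 201 of the 21935 gene symbols in both libraries bear a Zfp symbol with a number from 400 to 999. They were chosen by that symbol alone, and where a symbol had several transcript entries the one with the highest mean RPKM (reads per kilobase of exon model, scaled to library size) was used. Expression was measured by RNA-Seq of poly-A RNA from R1 mouse embryonic stem (ES) cells. The cells had been infected with a lentivirus carrying a short hairpin RNA against luciferase (shLuc, the control) or against Kdm5b (shKdm5b). They were selected with puromycin and cultured for 72 h without LIF. For culture without LIF the study names gelatin-coated or low-attachment dishes. Both groups are the same ES line, which is maintained on irradiated embryonic fibroblast feeders, and the depletion rests on a hairpin and not on a deleted gene. KDM5B is a demethylase that removes methyl groups from lysine 4 of histone H3, a mark of promoters. Each condition had 1 library, so no difference below has a replicate check, no p-value is given, and the statements compare these libraries and not the conditions.

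C2H2 zinc fingers contact DNA, and a protein with a row of them can recognise a long and specific sequence. Many of these proteins also hold a KRAB domain, which binds TRIM28. TRIM28 in turn brings in the histone methyltransferase SETDB1, HP1 proteins and histone deacetylases, and in ES cells this machinery silences endogenous retroviruses and protects imprinted loci. KRAB zinc finger genes arose by repeated tandem duplication and lie in clusters, whereas family members without KRAB include older factors with separate roles in chromatin, development and translation.

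Total mapped reads, as implied by reads and RPKM, were 78172700 for shLuc and 72702700 for shKdm5b. Kdm5b itself fell from 104 RPKM (51378 reads) to 3.01 RPKM (1377 reads), a log2 ratio of -5.07. All 10 ES cell markers examined were above 1 RPKM in at least 1 library, with a summed level of 3089 RPKM in shLuc and 3161 RPKM in shKdm5b, although Pou5f1 (619 against 182 RPKM) and Esrrb (80.5 against 41.2 RPKM) were lower and Dppa5a (1096 against 1651 RPKM) was higher in shKdm5b. Of 10 feeder fibroblast markers 2 passed 1 RPKM, the list summed to 17.4 RPKM in shLuc and 24.4 RPKM in shKdm5b, and Col1a1, Col1a2, Col3a1, Dcn, Lum, Pdgfrb, Postn and Twist2 stayed below 1 RPKM in both. Of 10 germ layer markers 6 passed 1 RPKM, with sums of 12.4 and 13.3 RPKM, but Gata4 and Gata6 were lower, with log2 ratios of -2.07 and -1.62, and Nes and Eomes higher, at 0.83 and 0.70. In bulk RNA, fewer cells that express a gene and less RNA per cell cannot be told apart.

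Of the 201 genes, 170 exceeded 1 RPKM in at least 1 library. Among the other 31, the mean of the 2 libraries reached at most 0.942 RPKM, with 19 having the higher value in shLuc, 11 in shKdm5b and 1 having no read in either. Most of the 170 were modestly expressed: their mean level ran from 0.807 to 106 RPKM with a median of 4.69 RPKM, and 37 of the 201 exceeded 10 RPKM. A median of 1136 reads in shLuc and 992 reads in shKdm5b lay behind each, and exact 95% counting intervals, which cover counting error only, excluded 0 for 150 of the 170. The summed level of all 201 genes was 1398 RPKM in shLuc and 1403 RPKM in shKdm5b. These close sums rested on 2 genes that have sequence in common with close copies, Zfp534 and Zfp600, and without them the sum was 1307 RPKM in shLuc and 1160 RPKM in shKdm5b.

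With a threshold of more than 1.5-fold, 30 of the 170 genes (17.6%) were higher in shKdm5b, against a background of 16.3% among the 11804 genes above 1 RPKM. A further 46 (27.1%) were lower, against a background of 32.0%, and 94 lay within 1.5-fold. Both shares were near the background. The median log2 ratio of shKdm5b over shLuc, computed on RPKM plus 0.1, was -0.08 for the Zfp genes and -0.21 for all genes. Under 3 other scalings the shKdm5b RPKM were raised by 0.17 to 0.24 on the log2 scale before 0.1 was added, so that low genes moved less, and the Zfp median turned to between 0.10 and 0.17. The split then became 39 to 44 higher and 37 to 41 lower of 172 or 173 genes, against 22.1% to 24.7% higher and 22.6% to 25.3% lower among all genes. Values here are therefore to be read against -0.21. After subtraction of the trend with GC content (given with the GC ranges), 17 of the 170 were higher against a background of 18.8%, and 32 were lower against 17.8%. Set against genes of similar mean RPKM and length, using 10 bins of mean RPKM by 5 bins of length, the median Zfp gene lay 0.25 above its bin's median, with 106 above and 64 below. Adding transcript GC content to the bins took this difference to -0.04, with 79 above and 91 below. Zfp genes numbered below 400 (112 of 135 above 1 RPKM) had 13 higher, 22 lower and a median of -0.11, and Zbtb genes, another zinc finger family, had 2 higher, 11 lower and a median of -0.33 over 32 genes above 1 RPKM.

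**Figure D1:**
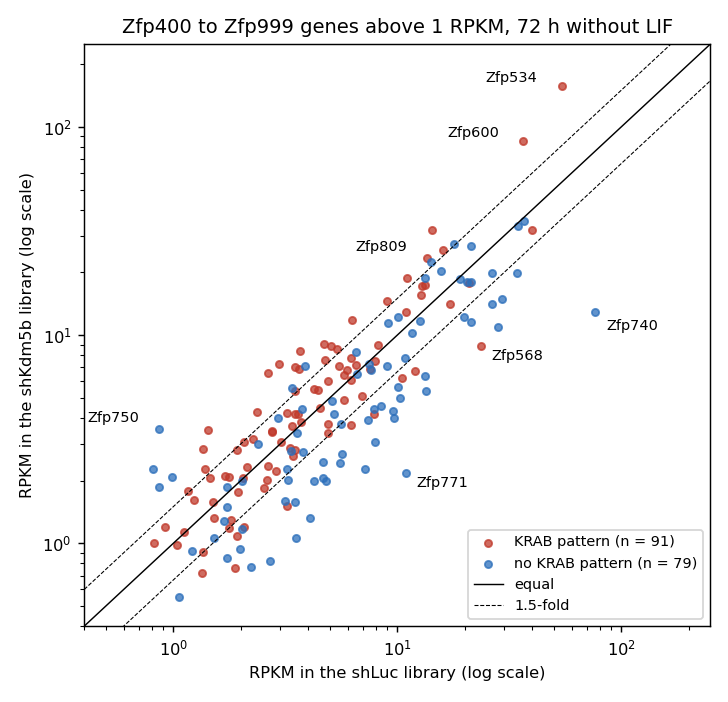
RPKM in the shLuc library (x axis) and in the shKdm5b library (y axis), both on log scales, for the 170 genes above 1 RPKM. Each point is 1 gene, red with and blue without a KRAB pattern. The solid line marks equal levels and the dashed lines 1.5-fold. Zfp534 and Zfp600 stand above the upper dashed line at the high end, and Zfp740 stands farthest below the lower one.

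Counts differed between classes of protein. The longest open reading frame of each gene's transcript was searched for a KRAB box pattern and for C2H2 fingers: 105 of the 201 genes had the pattern, with a median of 12 fingers, and 96 did not, with a median of 7 fingers. Among genes with the pattern, 22 of 91 above 1 RPKM were higher in shKdm5b and 10 were lower, with a median log2 ratio of 0.21. Among genes without it, 8 of 79 were higher and 36 were lower, with a median of -0.47. The shares higher were 24.2% and 10.1% beside 16.3% of all genes, whereas 32.0% of all genes were lower. Without genes that have more than 10% of their 50-base stretches in another gene, 13 of 71 KRAB genes (18.3%) were higher and 10 lower, and their median was 0.045. The same order appeared in Zfp genes numbered below 400, where the median was 0.06 with the pattern (45 genes) and -0.17 without it (67 genes). The classes also differed in base composition, with a median GC content of 41.7% over the 105 and 51.7% over the 96. After the trend of log2 ratio with GC over all genes above 1 RPKM was subtracted, the medians of the classes were -0.18 and -0.19. Then 8 of 91 and 9 of 79 genes were higher and 16 of each class lower. On that scale 18.8% of all genes were higher and 17.8% lower.

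The log2 ratio fell as GC content rose in these libraries. Across the 170 Zfp genes Spearman's rho was -0.71, and across 11761 genes above 1 RPKM with a known GC content it was -0.53. These are descriptions across genes that share the same libraries. Below 40% GC, 19 of 40 Zfp genes were higher and 1 was lower, with a median log2 ratio of 0.55, and the 508 other genes in that range had 243 higher, 19 lower and also a median of 0.55. At 55% GC and above, 1 of 36 Zfp genes was higher and 24 were lower, with a median of -0.91, against -0.76 for 3080 other genes. Between these ends the medians were 0.11, -0.17 and -0.58 for Zfp genes at 40 to 45%, 45 to 50% and 50 to 55% GC, and 0.31, -0.03 and -0.40 for other genes. From 40% GC upward the Zfp median was the lower of the pair in each range. Whether the GC trend came from the cells or from library preparation was not tested.

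**Figure D2:**
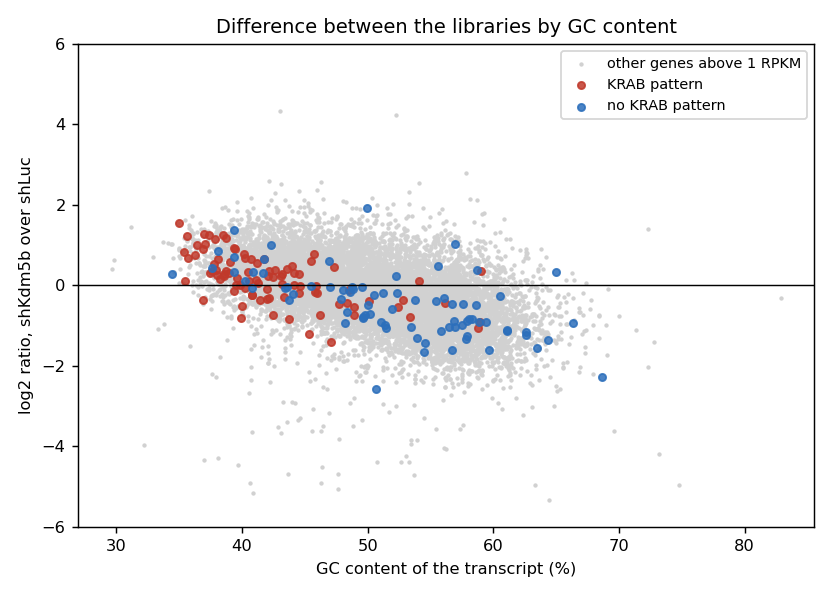
GC content of the transcript (x axis, percent) against the log2 ratio of shKdm5b over shLuc (y axis), 1 point per gene above 1 RPKM. Grey points are all other genes, red points Zfp genes with a KRAB pattern and blue points those without. KRAB genes crowd the low-GC, positive end and genes without KRAB the high-GC, negative end of the slope that all genes share.

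The genes with the 10 largest rises included 7 with a KRAB pattern. Zfp534 was the most highly expressed gene of the set, at 54.1 RPKM (12206 reads) in shLuc and 157.5 RPKM (33032 reads) in shKdm5b. Its log2 ratio was 1.54 (95% counting interval 1.51 to 1.57). Zfp600, also on chromosome 4, had 36.5 RPKM (11841 reads) in shLuc and 85.6 RPKM (25817 reads) in shKdm5b, a log2 ratio of 1.23. Both genes belong to recently expanded KRAB clusters. Of the 50-base stretches of Zfp534, 70.4% also occurred in another gene, most often Zfp987, and of those of Zfp600 84.4%, most often Rex2. How reads from shared stretches were handled in the RNA-Seq is not stated, so the values of both genes are uncertain. Zfp960 on chromosome 17 shared 84.5% of its stretches, mostly with Zfp97, and had 14.2 RPKM in shLuc and 32.0 RPKM in shKdm5b, a log2 ratio of 1.16.

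Zfp750, a driver of epidermal differentiation without a KRAB pattern, showed the largest rise at 0.864 RPKM (219 reads) in shLuc and 3.53 RPKM (832 reads) in shKdm5b. Its log2 ratio was 1.91 (interval 1.81 to 2.25) and 2.11 after subtraction of the GC trend, so this gene stood well off the slope. Zfp800, which acts in endocrine cell development, had 0.814 RPKM (248 reads) in shLuc and 2.28 RPKM (647 reads) in shKdm5b, a log2 ratio of 1.38. Zfp467, which acts in the choice between fat and bone cell fates, had 0.862 RPKM (65 reads) in shLuc and 1.87 RPKM (131 reads) in shKdm5b. That value came from a transcript entry of 965 bases, and its 3 longer entries had log2 ratios of 0.39, 0.48 and 0.59. Zfp672 passed the threshold only through an entry of 455 bases (35 reads in shLuc and 69 in shKdm5b), while its 3 longer entries were lower in shKdm5b. The remaining genes among the 10 were Zfp942, Zfp944, Zfp946 and Zfp947, which lie in 1 cluster on chromosome 17, with other Zfp genes between them, and are described there.

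The genes with the 10 largest falls included 1 with a KRAB pattern. Zfp740 fell farthest, from 76.5 RPKM (22341 reads) in shLuc to 12.9 RPKM (3493 reads) in shKdm5b. Its log2 ratio was -2.56 (interval -2.62 to -2.52), and with 50.7% GC it still stood at -2.31 after subtraction of the GC trend. It had been the highest of the 201 genes in shLuc. Zfp771, the most GC-rich of the set at 68.7%, had 10.9 RPKM (1046 reads) in shLuc and 2.18 RPKM (195 reads) in shKdm5b, and its log2 ratio moved from -2.27 to -1.14 once the GC trend was subtracted. Zfp428 moved from -1.35 to -0.36 and no longer passed 1.5-fold. The others were Zfp956, Zfp498 (now named Zscan25), Zfp775, Zfp628, Zfp862 (now annotated as a pseudogene) and Zfp821, with log2 ratios from -1.65 to -1.34, and Zfp568. After subtraction of the GC trend 8 of the 10 rises (all but Zfp600 and Zfp960) and 9 of the 10 falls (all but Zfp428) still passed 1.5-fold.

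**Figure D3:**
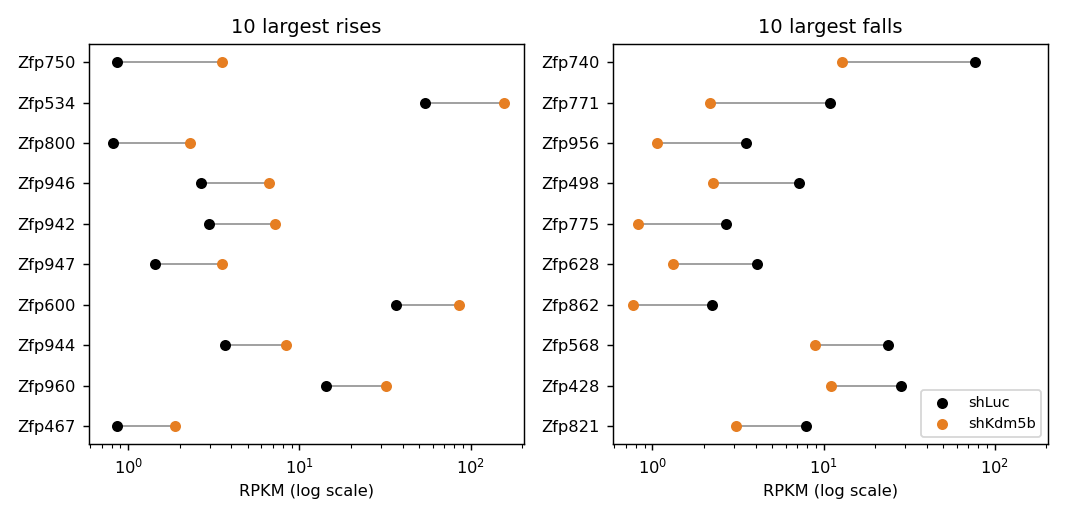
RPKM on a log scale in the shLuc (black) and shKdm5b (orange) libraries for the genes with the 10 largest rises (left) and the 10 largest falls (right), 1 line per gene and 1 library per point. Zfp534, Zfp600 and Zfp740 span the highest levels, and most of the others lie below 10 RPKM.

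Genes with known roles in silencing did not move as one. Of 8 KRAB genes listed for repression of retroelements or care of imprints, 1 was higher, 2 were lower and 5 lay within 1.5-fold, with a median log2 ratio of -0.26 beside -0.21 for all genes. These counts can be set against the 16.3% higher and 32.0% lower of all genes. With the GC trend subtracted 1 was higher and 4 were lower, Zfp459 and Zfp961 being added, beside 18.8% and 17.8% of all genes. The median was then -0.60 beside -0.02 for all genes. Zfp809, which recognises the primer binding site of murine leukaemia viruses, had 13.6 RPKM (1586 reads) in shLuc and 23.4 RPKM (2537 reads) in shKdm5b, a log2 ratio of 0.78 (interval 0.69 to 0.87). Its other transcript entries gave 0.61 and 0.59. With trends in both GC and length subtracted, Zfp809 stood at 0.46 and no longer passed 1.5-fold. Zfp568, which represses a placental transcript of Igf2, went the other way, from 23.6 RPKM (13259 reads) to 8.89 RPKM (4641 reads), a log2 ratio of -1.40 (interval -1.46 to -1.36). All 3 transcript entries of Zfp568 gave this log2 ratio when rounded. At 47.1% GC Zfp568 stood at -1.42 after subtraction of the GC trend, and it had the deepest fall among genes with the KRAB pattern.

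Zfp819, which interacts with TRIM28, had 10.4 RPKM (1970 reads) in shLuc and 6.21 RPKM (1089 reads) in shKdm5b, a log2 ratio of -0.74. Zfp445, a guardian of imprinting control regions, had 17.2 RPKM in shLuc and 14.1 RPKM in shKdm5b, and Zfp932, a repressor of endogenous retroviruses, had 10.9 and 12.9 RPKM. Both lay within 1.5-fold, and 55.5% of the 50-base stretches of Zfp932 occurred in another gene, mostly its close copy Gm15446. Zfp961 (40.02 and 31.8 RPKM), Zfp459 (20.9 and 17.8 RPKM) and Zfp708 (1.92 and 2.81 RPKM) also lay within 1.5-fold.

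Partners of histone-modifying complexes were likewise mixed. Of 5 listed genes above 1 RPKM, 1 was higher and 1 was lower, again beside 16.3% and 32.0% of all genes, and none passed 1.5-fold after subtraction of the GC trend. Zfp644, a partner of the H3K9 methyltransferases G9a and GLP, had 14.1 RPKM (6269 reads) in shLuc and 22.4 RPKM (9247 reads) in shKdm5b, a log2 ratio of 0.66 that became 0.28 with the GC trend subtracted. Zfp462, which helps to hold heterochromatin at lineage genes in ES cells, had 12.6 and 11.7 RPKM, a log2 ratio of -0.11. Zfp687 had 13.2 RPKM (4792 reads) in shLuc and 6.37 RPKM (2144 reads) in shKdm5b, a log2 ratio of -1.04 that became -0.37, and Zfp592, its partner in a chromatin complex with ZMYND8, had 5.63 and 3.75 RPKM, a log2 ratio of -0.58 that became -0.22. Zfp827, which recruits the NuRD complex to telomeres, lay at -0.49, and Zfp711, a partner of the demethylase PHF8, was below 1 RPKM in both libraries.

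Among regulators of lineage and pluripotency 6 of 10 found in the libraries passed 1 RPKM, with 1 higher and 3 lower beside 16.3% and 32.0% of all genes. Once the GC trend was subtracted 1 was higher and 0 were lower, beside 18.8% and 17.8% of all genes. The higher one was Zfp750. Zfp516, a factor of brown fat, had 10.3 RPKM (6185 reads) in shLuc and 4.96 RPKM (2780 reads) in shKdm5b, a log2 ratio of -1.03 that became -0.56. Zfp704 and Zfp651 were lower at -0.65 and -0.83, which became -0.58 and -0.07. Zfp423, a regulator of fat and neural precursors, lay at -0.47 and at 0.21 with the GC trend subtracted, and Zfp706, which promotes exit from the ES cell ground state, had 36.8 and 35.3 RPKM, a log2 ratio of -0.06. Zfp503, Zfp521, Zfp536 and Zfp703 stayed at or below 1 RPKM.

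Genes for RNA handling and ribosome function had no member higher and 2 of 5 lower beyond 1.5-fold, beside 16.3% and 32.0% of all genes. Zfp598, the ubiquitin ligase that senses collided ribosomes, had 26.5 RPKM (6808 reads) in shLuc and 14.1 RPKM (3378 reads) in shKdm5b, a log2 ratio of -0.90. Its GC content was 59.4%, and subtraction of the GC trend left -0.07. Zfp593, a factor of large ribosomal subunit assembly, had 8.47 and 4.55 RPKM, a log2 ratio of -0.88 that became -0.19. Zfp622 (20.4 and 17.9 RPKM) and Zfp830 (7.63 and 6.79 RPKM) lay within 1.5-fold. Abundant genes without KRAB differed as well: Zfp664 had 34.4 and 33.2 RPKM, whereas Zfp828 (now Champ1, a factor of chromosome alignment in mitosis) had 34.2 RPKM (10717 reads) in shLuc and 19.9 RPKM (5792 reads) in shKdm5b, a log2 ratio of -0.78.

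The pathway through which KRAB proteins act was examined through a list of 25 genes, of which 24 were found and all 24 exceeded 1 RPKM. Of these 4 (16.7%) were higher and 9 (37.5%) were lower, shares near the 16.3% and 32.0% of all genes, with a median log2 ratio of -0.46, or -0.25 after subtraction of the GC trend. Trim28, the corepressor that binds KRAB, had 476 RPKM (120644 reads) in shLuc and 145 RPKM (34072 reads) in shKdm5b, a log2 ratio of -1.72 that became -0.88. Setdb1 had 25.8 and 18.4 RPKM, a log2 ratio of -0.49. This cofactor list, written from background knowledge, is wider than the recruited machinery. It includes Zfp57 and Dppa3, and Dppa3 was among the higher genes at 1.33.

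The members were then set out by position in the genome. The 201 genes lay on 19 chromosomes, with 52 on chromosome 7, and 87 of them formed 13 runs of at least 4 Zfp genes separated by no more than 10 protein-coding genes. The proximal run on chromosome 17, from Zfp677 to Zfp945 (GRCm38, chr17:21383748-22867134), held 11 genes, and all 11 had a KRAB pattern and passed 1 RPKM. All 11 log2 ratios were above 0, 8 passed 1.5-fold, and the median was 0.99. The 5 Zfp genes numbered below 400 that lie among them, Zfp54, Zfp51, Zfp53, Zfp52 and Zfp229, were also higher, with a median of 0.78. After subtraction of the GC trend the medians were 0.31 for the 11 genes and 0.24 for the 5, from a median GC content of 37.4% for the 11. Of the 11, 8 then stayed above 0, with values from -0.61 to 0.68 over the 11. Zfp942, Zfp944, Zfp946 and Zfp947 still passed 1.5-fold, at 0.63, 0.61, 0.63 and 0.68. Zfp943, Zfp820, Zfp948 and Zfp758 no longer did, at 0.37, 0.31, 0.22 and 0.09.

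Levels in this run were low to moderate. Zfp946 had 2.66 RPKM (606 reads) in shLuc and 6.61 RPKM (1401 reads) in shKdm5b, a log2 ratio of 1.28 (interval 1.18 to 1.45). Zfp942 had 2.97 RPKM (761 reads) and 7.23 RPKM (1722 reads), a log2 ratio of 1.25 (interval 1.16 to 1.41). Zfp947 had 1.43 RPKM (297 reads) and 3.52 RPKM (680 reads), a log2 ratio of 1.24. These counting intervals overlapped, so the order of the 3 genes is not resolved. Zfp944 had 3.67 RPKM (799 reads) and 8.36 RPKM (1692 reads), a log2 ratio of 1.17, and Zfp943, Zfp820, Zfp758 and Zfp948 followed at 1.02, 0.99, 0.83 and 0.66. The genes at the ends of the run moved least: Zfp677 lay at 0.27 and Zfp945, with 6.56 RPKM (3333 reads) and 7.15 RPKM (3376 reads), at 0.12, as did the internal gene Zfp760 at 0.16. Most of these transcripts had few stretches in common with other genes, although 20.05% of those of Zfp947 occurred elsewhere, most often in Zfp995, and 10.4% of those of Zfp944, most often in Zfp942.

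Because 8 of these 11 genes passed 1.5-fold before subtraction of the GC trend, promoters of the run were compared. A promoter window here is the 300 bases from 250 before to 50 after a RefSeq transcript start (GRCm38.p6), and 163 of the 201 genes were matched to one. The windows of Zfp942, Zfp944, Zfp946 and Zfp947, the 4 genes of the run among the 10 largest rises, are shown because they hold the same 9 letters, CACGTGACC, written in capitals. Their positions are chr17:21962415-21962714 on the minus strand, chr17:22361351-22361650 on the minus strand, chr17:22423952-22424251 on the plus strand and chr17:22165928-22166227 on the minus strand.
Zfp942: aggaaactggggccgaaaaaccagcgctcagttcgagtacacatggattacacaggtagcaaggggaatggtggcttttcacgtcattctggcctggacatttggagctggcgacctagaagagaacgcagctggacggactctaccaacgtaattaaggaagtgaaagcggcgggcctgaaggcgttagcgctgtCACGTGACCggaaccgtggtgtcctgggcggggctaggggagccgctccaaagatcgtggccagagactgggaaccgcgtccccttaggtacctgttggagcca
Zfp944: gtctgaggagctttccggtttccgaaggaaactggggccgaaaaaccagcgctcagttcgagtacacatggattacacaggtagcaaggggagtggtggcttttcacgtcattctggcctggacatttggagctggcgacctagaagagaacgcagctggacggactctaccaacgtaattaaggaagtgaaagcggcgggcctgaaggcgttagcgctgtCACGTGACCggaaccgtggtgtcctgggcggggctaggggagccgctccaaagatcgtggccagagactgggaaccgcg
Zfp946: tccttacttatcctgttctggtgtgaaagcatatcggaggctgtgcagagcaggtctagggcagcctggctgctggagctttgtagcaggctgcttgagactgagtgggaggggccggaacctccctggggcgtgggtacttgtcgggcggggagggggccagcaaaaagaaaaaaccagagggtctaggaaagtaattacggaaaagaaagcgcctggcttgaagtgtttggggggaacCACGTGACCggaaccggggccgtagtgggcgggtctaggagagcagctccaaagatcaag
Zfp947: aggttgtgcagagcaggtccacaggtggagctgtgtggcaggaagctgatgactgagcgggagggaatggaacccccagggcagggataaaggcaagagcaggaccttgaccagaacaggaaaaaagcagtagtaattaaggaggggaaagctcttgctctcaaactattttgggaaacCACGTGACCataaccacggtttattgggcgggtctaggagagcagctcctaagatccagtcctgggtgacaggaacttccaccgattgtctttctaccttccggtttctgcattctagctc

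The capital letters begin 54 bases before the transcript start in Zfp942, 29 in Zfp944, 10 in Zfp946 and 71 in Zfp947. They contain CACGTG, the canonical E-box. On either strand CACGTGACC occurred in the windows of 7 of the 11 genes of this run. They were Zfp758, Zfp820, Zfp942, Zfp943, Zfp944, Zfp946 and Zfp947. All 7 passed 1.5-fold in shKdm5b before the GC trend was subtracted. Afterwards Zfp942, Zfp944, Zfp946 and Zfp947 still passed, and Zfp758, Zfp820 and Zfp943 did not. No other gene among the 163 had CACGTGACC, including Zfp948, which was also higher before that subtraction. Neither did the 4 lower-numbered genes of the run with a matched window. Its share was 1.25% across all genes with a window and 2.68% across those above 1 RPKM. The 7 windows are not independent: those of Zfp942 and Zfp943 lie head to head and overlap by 194 bases, those of Zfp944 and Zfp758 overlap by 162 bases, and the windows of Zfp942 and Zfp944 share an identical stretch of 207 bases. The letters were picked after the promoters had been seen. Of 243 genes above 1 RPKM outside the run with CACGTGACC, 31 were higher and 69 lower, with a median log2 ratio of -0.15. Of the 9070 genes without it, 1470 were higher and 2890 lower, with a median of -0.21. Whether these letters have a part in the values of the run was not tested.

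A second run on chromosome 17, from Zfp871 to Zfp563 (chr17:32765496-33110705), gave a contrast. All 8 of its genes had a KRAB pattern and a median GC content of 41.2%, yet none was higher, Zfp811 was lower, and the median log2 ratio was -0.03, which turned to between 0.13 and 0.19 under the 3 other scalings and was -0.47 after subtraction of the GC trend. Zfp472 had 6.20 RPKM (1132 reads) in shLuc and 7.76 RPKM (1319 reads) in shKdm5b, a log2 ratio of 0.32, and Zfp871 had 4.89 RPKM (4144 reads) and 3.38 RPKM (2668 reads), a log2 ratio of -0.52. The ranges of the runs overlapped, since Zfp677, Zfp760 and Zfp945 of the first run lay among the values of the second. None of the 7 windows matched in the second run held CACGTGACC.

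**Figure D4:**
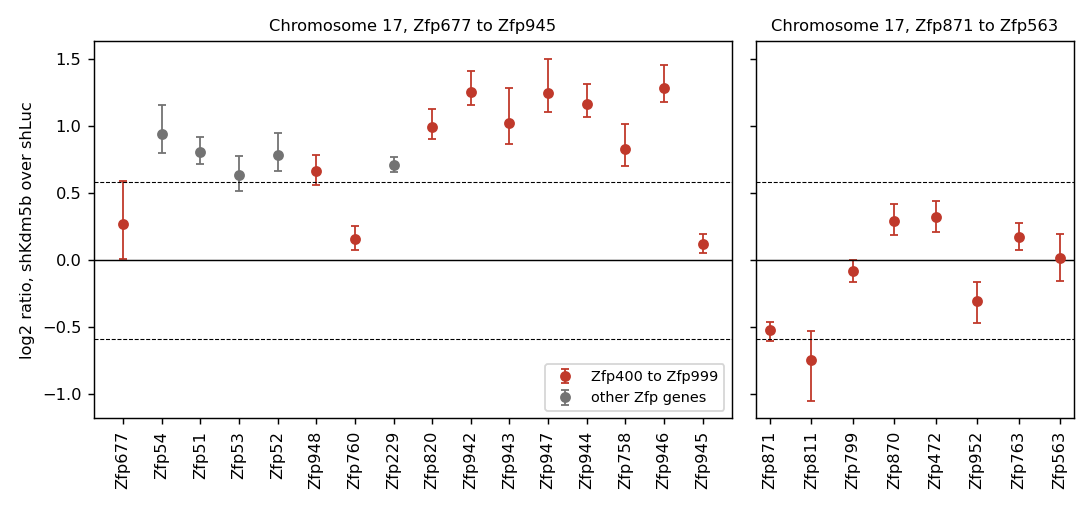
Log2 ratio of shKdm5b over shLuc (y axis) for the Zfp genes of both chromosome 17 runs in their order along the chromosome (x axis). Points are single genes, red for Zfp400 to Zfp999 and grey for lower numbers, bars are 95% counting intervals, and dashed lines mark 1.5-fold. All 16 genes of the left run lie above 0, and the 8 genes of the right run scatter on both sides of it.

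Other runs differed in level and in base composition. Their counts can be set against the 16.3% higher and 32.0% lower of all genes above 1 RPKM. On chromosome 13, 10 of the 14 genes from Zfp712 to Zfp493 passed 1 RPKM, with 1 higher, 0 lower, a median of 0.33 at 39.0% GC and -0.24 after subtraction of the GC trend. The run from Zfp553 to Zfp646 on chromosome 7 held 10 genes at a median GC content of 53.8%, of which 5 were lower and 0 higher. Its median moved from -0.66 to -0.14. The 16 other genes above 1 RPKM within that run had 7 lower, 0 higher and a median of -0.58. The run from Zfp786 to Zfp775 on chromosome 6 had 3 of 5 genes lower, 1 higher and a median of -0.91 that became -0.11. Of 7 other genes above 1 RPKM within it, 5 were lower and 0 higher, with a median of -1.10. The short run from Zfp709 to Zfp961 on chromosome 8 differed from these runs, with a median of -0.34 at 41.2% GC that became -0.72.

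**Figure D5:**
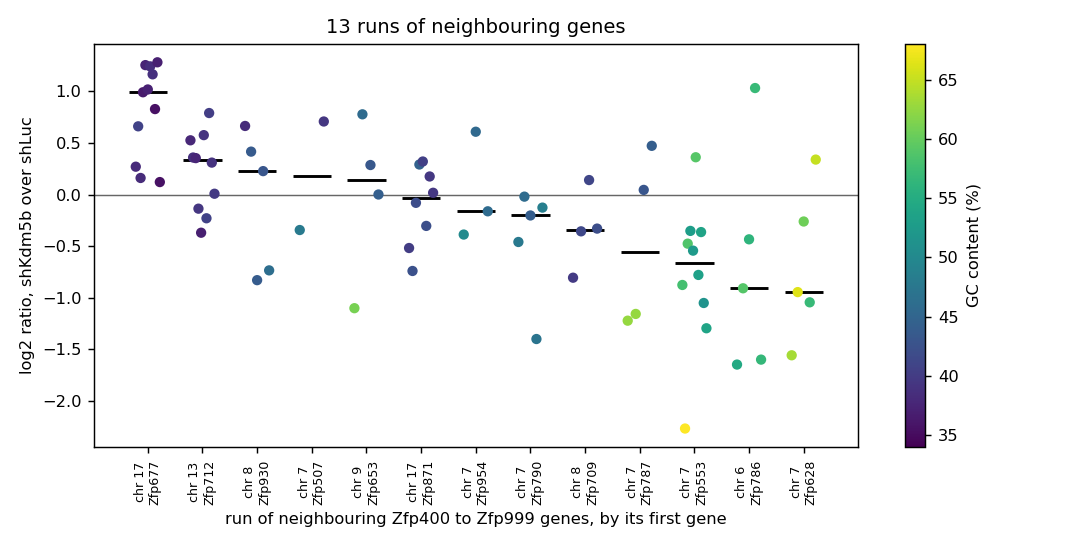
Log2 ratio of shKdm5b over shLuc (y axis) for genes above 1 RPKM in each of the 13 runs, ordered by their median (black bar) and named by chromosome and first gene (x axis). Points are single genes coloured by GC content. The chromosome 17 run that starts at Zfp677 is highest at 0.99, and low-GC runs lie mostly to the left.

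Symbol number, which partly follows the order of gene discovery, went with the log2 ratio before the GC trend was subtracted. The counts here can be set against the 16.3% higher and 32.0% lower of all genes above 1 RPKM. Genes numbered 900 to 999 had 11 of 29 higher and 1 lower, with a median of 0.30, whereas genes numbered in the 500s had 2 of 25 higher and 12 lower, with a median of -0.58. With that trend subtracted these medians became -0.14 and -0.13. Sequence shared between copies went with the direction too. Of 23 genes above 1 RPKM with more than 10% of their 50-base stretches in another gene, 10 were higher and 0 were lower, with a median of 0.43. Among the other 147, 20 (13.6%) were higher and 46 (31.3%) lower, shares near those of all genes, with a median of -0.19. GC content and sharing were themselves related (Spearman's rho -0.57 over the 170 genes). With the GC trend subtracted the medians were -0.035 and -0.21, and 3 of the 23 and 14 of the 147 were higher, beside 18.8% of all genes.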

How the data were processed

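RNA-Seq was compared between 1 shLuc and 1 shKdm5b library of R1 ES cells at 72 h. The authors deposited per-transcript RPKM values and raw read counts, and the submitters' processing notes name CASAVA 1.0, Bowtie 0.12.7 and the build mm8, with no role given. Coordinates, GC content, open reading frames and 50-base stretches came from GENCODE transcripts on GRCm38, so they describe the genes and not the alignment. Of the 201 genes, 198 matched by accession and 3 by symbol. A sixth deposited column of whole numbers, of unstated meaning, and the read position files were not used.

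The members and lists were chosen with earlier results of these data known. The study's edgeR test was not run, since it needs replicates or an assumed dispersion. Log2 ratios used RPKM plus 0.1, and a gene counted as higher or lower above 1.5-fold with more than 1 RPKM in at least 1 library. Counting intervals are exact (Clopper-Pearson, 95%) on reads without the added 0.1. GC trends were lowess curves (fraction 0.3) over all genes above 1 RPKM. The genes named were drawn from the 10 largest rises and falls, the 8 highest mean levels, the function lists and the cofactors. Zfp655, ranked 8 by mean level with a log2 ratio of 0.33, and many cofactors were not described. Other genes were picked for position or transcript entries. KRAB calls are pattern matches in translated transcripts and can miss or add genes. The code was tested on simulated data. Python 3.11.15, SciPy 1.17.1, statsmodels 0.14.6 and edgeR 4.0.16 (TMM factors only) were used.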

Additional observations from a re-analysis of the deposited data

How the results depend on the processing

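No paired analysis was possible because shLuc and shKdm5b were each sequenced as 1 library, and leaving out a replicate was not possible for the same reason. The main values are 30 higher and 46 lower of 170 Zfp genes, median log2 ratios of -0.08 for all of them, 0.21 with and -0.47 without a KRAB pattern, -0.46 for the KRAB cofactors and -5.07 for Kdm5b. With 1 in place of 0.1 added to RPKM these medians were, in the same order, -0.062, 0.15, -0.37, -0.45 and -4.72. With the median log2 ratio of genes above 1 RPKM in both libraries set to 0 they were 0.096, 0.36, -0.30, -0.29 and -4.91. With TMM factors they were 0.14, 0.41, -0.25, -0.24 and -4.86, and with median-of-ratios size factors 0.17, 0.44, -0.23, -0.22 and -4.84. Subtraction of the GC trend gave -0.19, -0.18, -0.19 and -0.25 with 17 higher, and of the GC and length trend -0.086, -0.094, -0.074, -0.10 and -4.84 with 15 higher and 22 lower (15.4% and 16.3% of all genes). Subtraction of the length trend alone gave 0.20, 0.46, -0.19, -0.22 and -4.77. The second chromosome 17 run changed sign under the 3 scalings (0.13, 0.18 and 0.19) and the length trend (0.26). Of 49 Zfp genes named by rule, 5, 6 and 7 changed sign under the 3 scalings, 8 under the GC trend, 12 under the GC and length trend and 9 under the length trend, and 0 under the others. Among them Zfp651 and Zfp598, both lower in the main values, changed sign under the GC and length trend, to 0.14 and 0.047. With more than 11 RPKM required, 10 of 41 were higher and 11 lower (21.8% and 25.8% of all genes), with medians of -0.049 for all, 0.42 with and -0.19 without a KRAB pattern. With more than 1 RPKM required in both libraries the medians were -0.060 for all and 0.23 with a KRAB pattern, and with no RPKM minimum 0.18 with and -0.37 without it. A 2-fold threshold left 12 higher and 23 lower of 170 (6.27% and 16.5% of all genes). Summing all entries of a symbol gave -0.49 for the cofactors. An alternative chosen after seeing the data, without the genes that share more than 10% of their 50-base stretches, gave medians of -0.19 for all, 0.045 with and -0.48 without a KRAB pattern, and 20 higher and 46 lower. The 20 genes named as largest rises and falls kept their sign under all alternatives run. They were picked as the extremes of the same ratios, so their kept signs are no independent check. The causes of these changes were not tested. Depth limited little: 150 of 170 counting intervals excluded 0, but counting error is not the error between cultures.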

Other observations

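Some genes outside the rankings above also differed, and several of them share sequence with other genes. Zfp808 and Zfp934 on chromosome 13 have 46.4% and 45.6% of their 50-base stretches in another gene. They had 11.1 and 9.02 RPKM in shLuc and 18.7 and 14.6 RPKM in shKdm5b, with log2 ratios of 0.75 and 0.69. Zfp781 on chromosome 10 had 3.87 RPKM (1229 reads) in shLuc and 7.07 RPKM (2089 reads) in shKdm5b, but 96.3% of its stretches occurred in another gene, most often Gm3055. On the same chromosome Zfp938, which shares 0.10% of its stretches, had 3.65 RPKM (579 reads) and 6.86 RPKM (1012 reads), a log2 ratio of 0.89. Zfp791, a KRAB gene on chromosome 8 with 45.3% GC, had 1.88 RPKM (342 reads) in shLuc and 0.761 RPKM (129 reads) in shKdm5b, a log2 ratio of -1.20 and of -1.35 after subtraction of the GC trend.

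Within the cofactor list, genes of the HUSH silencing complex and its partner differed in direction. Mphosph8 had 54.2 RPKM (12447 reads) in shLuc and 88.9 RPKM (18969 reads) in shKdm5b, a log2 ratio of 0.71, and Pphln1 had 14.9 RPKM (4365 reads) and 31.0 RPKM (8468 reads), a log2 ratio of 1.06. Morc2a, which works with HUSH, had 26.4 RPKM in shLuc and 15.7 RPKM in shKdm5b, a log2 ratio of -0.75. Hdac2 was higher at 0.75 and Hdac1 lower at -0.70. After subtraction of the GC trend Pphln1 stood at 1.20, and Mphosph8 (0.38), Morc2a (-0.57), Hdac2 (0.52) and Hdac1 (-0.50) no longer passed 1.5-fold. These genes were picked from the list after their values had been seen.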
